A study of Mus musculus with 6 samples.

Results

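The NDRG family (N-myc downstream regulated genes) comprises Ndrg1, Ndrg2, Ndrg3 and Ndrg4. Its members were taken by gene symbol from raw gene counts of mouse kidneys, which gave 4 genes of 24422, and no other symbol in the counts begins with Ndrg. RNA-seq was performed on 6 kidneys of wild type C57BL/6 pups at postnatal day 15 (P15), 3 in each group, to examine how nutritional iron deficiency alters the transcriptome. Control pups came from dams fed 220 ppm iron, and iron-deficient (FeD) pups came from dams fed a synthetic diet with 2 to 6 ppm iron. The dams were 8 weeks old when assigned to a diet, were mated with C57BL/6 males after a month, and kept their diet until P15 according to the sample labels. The published methods give a somewhat shorter time on the diet before mating. Sex and litter are not given in the labels, so P values reflect separate kidneys and the diet cannot be told apart from differences between litters.

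NDRG proteins share an alpha/beta-hydrolase fold without a known enzymatic activity, and the family is named for the repression of its founding member by Myc proteins. NDRG1 is a cytoplasmic protein that accumulates in hypoxia and after iron chelation, is phosphorylated by SGK1 and GSK3, and is required for myelin maintenance by Schwann cells. NDRG2 is abundant in brain and present in kidney and restrains proliferation, NDRG3 binds lactate and accumulates as a protein in prolonged hypoxia, and NDRG4 is found mainly in neurons and heart.

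Raw counts on genes totalled 18312543, 16189041 and 20374327 in control kidneys 1 to 3 and 17833878, 13732173 and 20853293 in FeD kidneys 1 to 3. Expressed as CPM (counts scaled to the library total), the floor of 3 counts that the depth can show was 0.144 to 0.218 CPM, which covers counting error only. Ndrg1 had 40132, 37414 and 39329 raw counts in control kidneys and 66640, 49178 and 64694 in FeD kidneys. Ndrg4, the member with the fewest counts, had 707, 548 and 729 in control kidneys and 253, 496 and 396 in FeD kidneys. All 4 members passed edgeR's filter on low counts, as did 15145 genes in all, so the values of the members below rest on at least 253 counts in each kidney.

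FeD kidney 2 stood apart from the other libraries in genes of the adrenal gland. The adrenal list, with steroid enzymes of the cortex and catecholamine genes of the medulla, summed to 695 CPM in FeD kidney 2, compared with 7.87 to 17.3 CPM in the other 5 kidneys. All 8 genes of the list were highest in FeD kidney 2. Star, the cholesterol carrier of steroid synthesis and the most abundant gene of the list, was at 205 CPM there and at 6.98 to 10.6 CPM elsewhere. The cortical enzyme Cyp11b1 was at 133 CPM in FeD kidney 2 and had 0 counts in control kidneys 1 and 3 and in FeD kidney 1, and Th, the rate-limiting enzyme of catecholamine synthesis, was at 80.1 CPM compared with at most 0.215 CPM elsewhere. The Schwann cell and neuron list summed to 166 CPM in FeD kidney 2 and to 53.8 to 82.7 CPM in the others, with 9 of its 12 genes highest in FeD kidney 2. Each fold change of an NDRG member is therefore given with and without this library.

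On the NCBIM37 (mm9) assembly, Ndrg1 spans chr15:66760883-66801202 on the minus strand (ENSMUSG00000005125.6), with 16 exon blocks of 6593 bases in all. Ndrg2 spans chr14:52524946-52533163 on the minus strand, with 16 blocks of 2157 bases, and Ndrg3 spans chr2:156753081-156817792 on the minus strand, with 17 blocks of 8388 bases. Ndrg4 spans chr8:98200880-98239019 on the plus strand, with 20 blocks of 4887 bases. The longest complete coding sequences of the members were 65.3% (Ndrg2 and Ndrg3) to 71.1% (Ndrg1 and Ndrg4) identical over aligned bases. None of the windows of 100 bases in their protein-coding transcripts recurred in another protein-coding gene, including the other members; pseudogenes were not searched. Exons of Ndrg1 overlap those of the non-coding genes Gm17035 (419 bases) and Gm2895 (137 bases) on the opposite strand; the strand setting of the counting is not given in the sources used here, so reads of these genes cannot be told apart from those of Ndrg1 where they overlap. No exon overlap with another gene was found for Ndrg2, Ndrg3 or Ndrg4.

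Myc proteins bind the E-box CACGTG and hypoxia-inducible factors bind the letters ACGTG or GCGTG, so these motifs were searched on both strands in the 250 bases before each annotated start site (RefSeq, GRCm38.p6). Windows were matched for Ndrg2, Ndrg3 and Ndrg4, 9 in all, and none for Ndrg1. The hypoxia letters, which are also part of the E-box, were found in 5 of these 9 windows and in 38.6% of all 32851 windows, and the E-box was found in 1 window, of Ndrg4, and in 6.02% of all windows. A window without annotated exons is shown for each matched member, with the hypoxia letters in capitals, followed by the stretch of 30 bases around the E-box of Ndrg4 with the E-box in capitals. Another Ndrg2 window without annotated exons, chr14:51914005-51914254, had none of the hypoxia letters and is not shown. By member, the hypoxia letters were in 2 of 3 windows of Ndrg2, 1 of 2 of Ndrg3 and 2 of 4 of Ndrg4. The Ndrg3 window shown has none of them. The other Ndrg3 window, chr2:156991704-156991953, has them at 2 positions and is not shown because it overlaps annotated exons.
Ndrg2, chr14:51913489-51913738, minus strand: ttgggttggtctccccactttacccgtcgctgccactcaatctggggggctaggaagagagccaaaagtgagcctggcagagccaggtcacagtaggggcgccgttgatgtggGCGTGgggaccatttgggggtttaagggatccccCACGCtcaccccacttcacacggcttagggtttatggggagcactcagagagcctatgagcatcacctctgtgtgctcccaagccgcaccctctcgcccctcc
Ndrg3, chr2:156992112-156992361, minus strand: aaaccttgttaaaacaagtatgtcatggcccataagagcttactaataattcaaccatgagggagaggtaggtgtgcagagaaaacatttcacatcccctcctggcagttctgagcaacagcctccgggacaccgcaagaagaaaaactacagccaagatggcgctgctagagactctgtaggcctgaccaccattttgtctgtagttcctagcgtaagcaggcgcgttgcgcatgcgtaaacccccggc
Ndrg4, chr8:95676724-95676973, plus strand: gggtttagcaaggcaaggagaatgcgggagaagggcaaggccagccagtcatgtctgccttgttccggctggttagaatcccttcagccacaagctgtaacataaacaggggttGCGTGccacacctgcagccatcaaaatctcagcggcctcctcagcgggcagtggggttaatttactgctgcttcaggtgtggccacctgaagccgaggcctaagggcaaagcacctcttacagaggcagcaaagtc
Ndrg4 E-box, chr8:95677713-95677742, plus strand: cgcccacccaccCACGTGggcacgcccccg

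The 4 members differed in their calls: in FeD kidneys Ndrg1 rose, Ndrg3 fell, and Ndrg2 and Ndrg4 did not pass edgeR's test of all 6 kidneys without a block. Ndrg4 passed when FeD kidney 2 was left out, with DESeq2's Wald test, and with a replicate block in edgeR. The block pairs kidneys by the number in their labels, and same-numbered kidneys did not deviate together from their group means. Ndrg2 passed when FeD kidney 3 was left out. The directions of the 4 members were the same under each scaling of the libraries tried. At an adjusted P under 0.05 (edgeR's quasi-likelihood test, Benjamini-Hochberg adjustment over all tested genes), 1 of the 4 members was higher, where 22.4% of tested genes were, and 1 was lower, where 23.3% were. These shares lie near those of all tested genes. With all 6 kidneys, none of the 4 members also changed by at least 2-fold, which 1519 of 15145 genes (10%) did, and the groups did not overlap in 2 members: Ndrg1 had all FeD kidneys above the controls, as 28.4% of tested genes did, and Ndrg3 had all of them below, as 29.7% did. In whole kidneys, more or fewer cells that express a gene and more or less of its RNA per cell cannot be told apart.

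**Figure D1:**
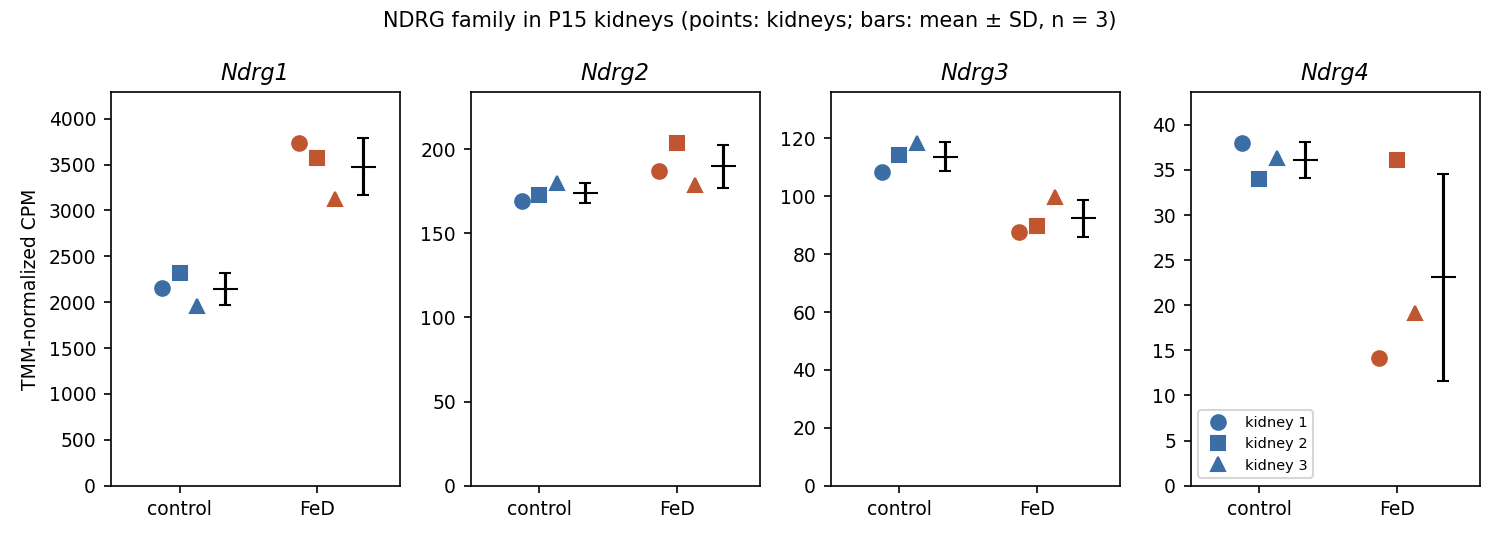
TMM-normalized CPM of each member in the 6 kidneys, with 1 panel per gene, a symbol per kidney number, and bars for the mean ± SD of 3 kidneys. Ndrg1 was above and Ndrg3 below every control kidney in all 3 FeD kidneys, and Ndrg4 in FeD kidney 2 (36.1 CPM) lay within the control range.

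Ndrg1, the hypoxia- and iron-responsive member, was measured at 2154, 2318 and 1959 CPM in control kidneys and at 3731, 3576 and 3127 CPM in FeD kidneys. All 3 FeD kidneys were above all 3 control kidneys, and the kidneys of each group lay close together. The mean rose from 2144 ± 179 to 3478 ± 314 CPM (SD, n = 3), a log2 fold change of 0.70 ± 0.10 (SE; edgeR adjusted P = 0.0012). This is a 1.62-fold rise with a 95% interval of 1.37 to 1.92, which lies below 2-fold. In size, the log2 fold change of Ndrg1 ranked 3021 among the 15145 tested genes. When FeD kidney 2 was left out, the log2 fold change was 0.70 ± 0.11 (edgeR adjusted P = 0.0024).

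Ndrg3, the lactate-binding member, was measured at 108, 114 and 118 CPM in control kidneys and at 87.7, 89.7 and 99.7 CPM in FeD kidneys. Every FeD kidney was below every control kidney, with FeD kidney 3 nearest to them. The mean fell from 114 ± 5.07 to 92.4 ± 6.44 CPM (SD, n = 3), a log2 fold change of -0.30 ± 0.07 (SE; edgeR adjusted P = 0.0087). Leaving out FeD kidney 2 gave -0.26 ± 0.08 (edgeR adjusted P = 0.034).

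Ndrg2, the member that restrains proliferation, was measured at 169, 173 and 180.1 CPM in control kidneys and at 187, 203 and 179 CPM in FeD kidneys. FeD kidneys 1 and 2 were above all control kidneys, and FeD kidney 3 was within the control range. The mean was 174 ± 5.73 CPM in control and 190 ± 12.5 CPM in FeD kidneys (SD, n = 3), and the log2 fold change of 0.12 ± 0.07 did not pass the test (95% interval -0.03 to 0.28; edgeR adjusted P = 0.16). It was 0.09 ± 0.06 without FeD kidney 2 (edgeR adjusted P = 0.28), whereas without FeD kidney 3 it was 0.18 ± 0.06 and passed (edgeR adjusted P = 0.031), and over all alternatives the adjusted P ranged from 0.031 to 0.39.

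Ndrg4, the neuronal and cardiac member, was measured at 38.0, 33.9 and 36.3 CPM in control kidneys and at 14.2, 36.1 and 19.1 CPM in FeD kidneys. FeD kidneys 1 and 3 were below all control kidneys, whereas FeD kidney 2 was at the control level, so the groups overlapped. The mean was 36.1 ± 2.01 CPM in control and 23.1 ± 11.5 CPM in FeD kidneys (SD, n = 3), and the log2 fold change of -0.66 ± 0.29 did not pass the test (95% interval -1.31 to 0.00; edgeR adjusted P = 0.094). Without FeD kidney 2, Ndrg4 was at 46.2% of its control mean, a log2 fold change of -1.09 ± 0.14 (95% interval -1.42 to -0.76; edgeR adjusted P = 0.0010). Without that library 2 of the 4 members were lower, where 20.8% of tested genes were, and 1 was higher, where 21.9% were. The log2 fold change of Ndrg4 was smaller without FeD kidney 1 (-0.38; edgeR adjusted P = 0.24) and without FeD kidney 3 (-0.53; edgeR adjusted P = 0.19). DESeq2's Wald test, with all 6 kidneys, put Ndrg4 at -0.64 ± 0.27 (adjusted P = 0.049). With a replicate block in edgeR, Ndrg4 was at -0.74 and also passed (edgeR adjusted P = 0.049). Over all alternatives the adjusted P ranged from 0.0010 to 0.24.

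**Figure D2:**
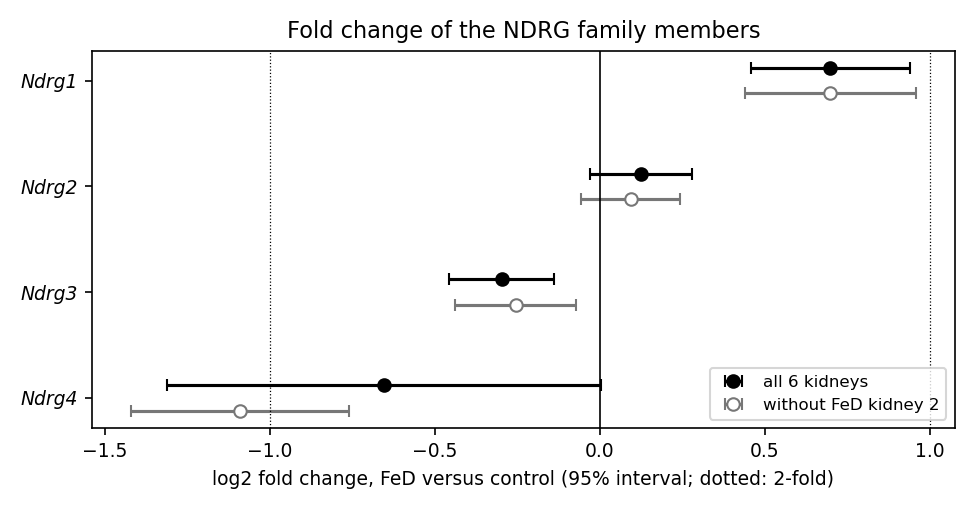
Log2 fold change of each member, FeD versus control, with its 95% interval from edgeR, for all 6 kidneys (filled) and without FeD kidney 2 (open); dotted lines mark 2-fold. The estimates of Ndrg1, Ndrg2 and Ndrg3 lie close together in both fits, and that of Ndrg4 goes from -0.66 to -1.09 with a narrower interval.

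The library in which Ndrg4 was at the control level is the library with adrenal genes. In FeD kidney 2 the neuronal genes Syt1 (24.4 CPM, at most 1.07 CPM elsewhere), Snap25 (17.0 CPM, at most 0.215 CPM) and Tubb3 (16.9 CPM, at most 1.13 CPM) were also at their highest. Uchl1, a neuronal ubiquitin hydrolase, was at 29.6 CPM in FeD kidney 2 and at 9.37 to 17.6 CPM elsewhere. In the same library Ndrg1 (3576 CPM) and Ndrg3 (89.7 CPM) lay between the other FeD kidneys, and Ndrg2 (203 CPM) was the highest of the 6 kidneys. The part of the adrenal and neuronal genes in the Ndrg4 level of FeD kidney 2 was not tested.

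**Figure D3:**
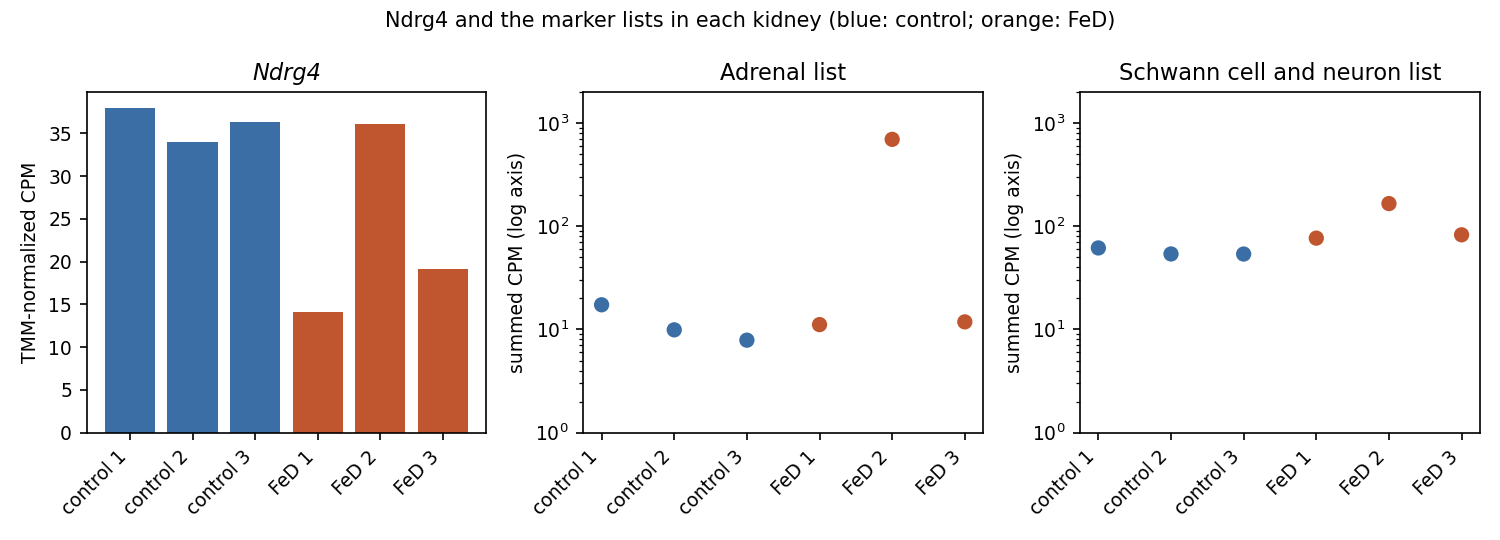
Ndrg4 (CPM, bars from 0) and the summed CPM of the adrenal list and of the Schwann cell and neuron list (log axes) in each of the 6 kidneys, control in blue and FeD in orange. FeD kidney 2 holds the highest sum of both lists, 695 and 166 CPM, and the highest Ndrg4 of the FeD kidneys.

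Counts of Ndrg1 per count of another member, a measure that does not depend on library scaling, were compared within each kidney. Ndrg1 had 19.9, 20.3 and 16.6 counts per count of Ndrg3 in control kidneys and 42.5, 39.9 and 31.4 in FeD kidneys, a log2 difference of 1.00 with no overlap between groups. Per count of Ndrg2, Ndrg1 had 12.8, 13.4 and 10.9 counts in control kidneys and 20.0, 17.6 and 17.5 in FeD kidneys, a log2 difference of 0.57. Per count of Ndrg4, it had 56.8, 68.3 and 53.9 in control kidneys and 263, 99.1 and 163 in FeD kidneys, so that FeD kidney 2 was again nearest to the controls. Ndrg2 had 1.56, 1.51 and 1.52 counts per count of Ndrg3 in control kidneys and 2.13, 2.27 and 1.79 in FeD kidneys. The groups did not overlap in 5 of the 6 pairs of members, which share genes, as was the case for 56.6% of all pairs of tested genes with counts in every kidney. Without overlap, a two-sided exact permutation test of 3 kidneys against 3 gives its smallest P, 0.10, so this P only restates it (0.12 after Benjamini-Hochberg adjustment over the 6 pairs). The exception was Ndrg3 to Ndrg4, with a log2 difference of 0.45 (exact P = 0.40), where FeD kidney 2 was below the controls at 2.49 and the other FeD kidneys were above them at 6.19 and 5.21.

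Per kilobase of exon, the order of levels was Ndrg1, Ndrg2, Ndrg3 and Ndrg4 in each control and FeD kidney. In control kidneys Ndrg1 stood at 325 ± 27.2 CPM per kilobase, Ndrg2 at 80.6 ± 2.66, Ndrg3 at 13.5 ± 0.604 and Ndrg4 at 7.38 ± 0.412 (SD, n = 3), so that neighbours in this order differed beyond their spread. In FeD kidneys they stood at 528 ± 47.6, 87.9 ± 5.82, 11.01 ± 0.768 and 4.73 ± 2.35 CPM per kilobase. These levels depend on the length used: by the longest transcript, control levels were 529 CPM per kilobase for Ndrg1, 80.6 for Ndrg2, 28.2 for Ndrg3 and 11.6 for Ndrg4, in the same order. Ndrg1 was 43.2 times the median level per kilobase of the 13729 tested genes with an annotated length in control kidneys, and Ndrg4 was 0.980 times that median. The rank of Ndrg1 per kilobase went from 124 in control to 60 in FeD kidneys, and that of Ndrg4 from 6933 to 8543.

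Ndrg1 made up most of the family's level per kilobase in every kidney. Its share was 76.8%, 77.7% and 73.9% in control kidneys and 85.0%, 82.8% and 82.8% in FeD kidneys, without overlap. The share of Ndrg2 went from 18.95 ± 1.602% to 13.96 ± 0.823% (SD, n = 3), although its own level did not pass the test. The shares of Ndrg3 went from 3.18 ± 0.279% to 1.76 ± 0.275% and those of Ndrg4 from 1.74 ± 0.173% to 0.749 ± 0.351%. Summed over the members, the family stood at 427 ± 25.0 CPM per kilobase in control and 631 ± 50.7 in FeD kidneys, and at 650 and 977 by the longest transcript, with which the share of Ndrg2 was 12.4% in control and 9.02% in FeD kidneys.

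**Figure D4:**
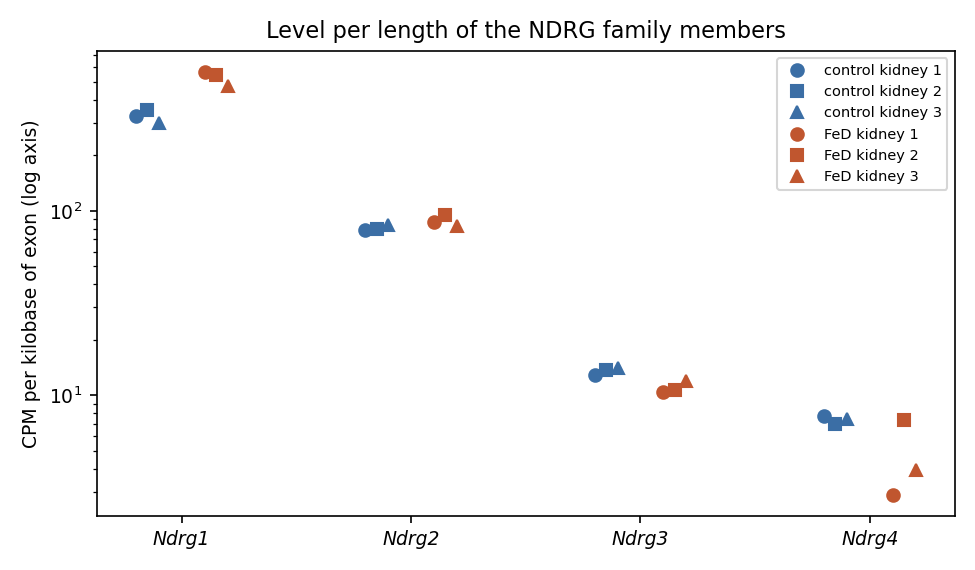
CPM per kilobase of exon (log axis) of the 4 members in each of the 6 kidneys, control in blue and FeD in orange. Ndrg1 lies above the other members in every kidney, and the Ndrg4 level in FeD kidney 2 lies among the control kidneys.

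The genes whose log2 CPM, centred on each gene's mean, was nearest to a member's over the 6 kidneys were sought among 12932 others that averaged 50 normalized counts or more. Nearest to Ndrg1 were Mospd1, Dhx40 and Eef1b2, a translation elongation factor subunit, with root mean square differences of 0.044 to 0.051 log2 units. Nearest to Ndrg3 were Kdelr2, a receptor that returns proteins to the endoplasmic reticulum, Ube2a, a ubiquitin-conjugating enzyme, and Entpd5, a nucleotidase of the endoplasmic reticulum, at 0.018 to 0.023. Nearest to Ndrg2 were Emp1, Cnih1 and Mrps18c, at 0.020 to 0.022. For Ndrg4 the nearest genes, Apc2, Plcl2 and Tmem35, were farther away, at 0.139 to 0.147.

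Of the genes that regulate transcription of NDRG members, 8 of 16 rose and 2 fell, with a median log2 fold change of 0.18, compared with 0.00 over all tested genes, of which 22.4% rose and 23.3% fell; changes of the genes in the lists below are log2 fold changes from edgeR. Hif3a, a hypoxia-inducible factor with inhibitory splice forms, rose by a log2 fold change of 3.72, from 8.92 to 11.5 CPM in control kidneys to 120 to 143 CPM in FeD kidneys (edgeR adjusted P = 3.3e-06). Egln3, a prolyl hydroxylase that marks HIF proteins for degradation and is itself a HIF target, rose by 1.23, and Egr1, an immediate early factor that activates Ndrg1, rose by 1.64. The transcripts of the HIF subunits that induce Ndrg1 moved in both directions: Hif1a fell by 0.33 and Epas1 fell by 0.34, while Arnt rose by 0.21. Myc, whose protein represses Ndrg1, rose by 0.70, from 12.9 to 15.7 CPM in control kidneys to 20.2 to 27.1 CPM in FeD kidneys, and Mycn was at -0.03 ± 0.14 (SE; edgeR adjusted P = 0.89). When FeD kidney 2 was left out, 7 of these genes rose and 1, Epas1, fell (21.9% and 20.8% of all tested genes in that fit), while Hif1a was at -0.27 (edgeR adjusted P = 0.065) and Arnt at 0.19 (edgeR adjusted P = 0.055).

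Of the kinases and turnover factors of NDRG proteins, 7 of 14 rose and 2 fell, beside 22.4% and 23.3% of all tested genes, and the median log2 fold change was 0.18. Sgk1, the kinase that phosphorylates NDRG1 and NDRG2, was at 261, 274 and 365 CPM in control kidneys and at 486, 526 and 657 CPM in FeD kidneys. All FeD kidneys were above all control kidneys, a log2 fold change of 0.89 ± 0.15 (SE; edgeR adjusted P = 0.0023). Pdpk1, whose protein activates SGK1, rose by 0.43 and the TORC2 subunit Rictor by 0.64, whereas the TORC2 subunit Mlst8 (-0.33; edgeR adjusted P = 0.18) and the related kinases Sgk2 (-0.20) and Sgk3 (0.04) did not pass the test. Gsk3b, which phosphorylates NDRG1 after SGK1, rose by 0.31, its paralog Gsk3a fell by 0.19, and the ubiquitin ligase Nedd4l rose by 0.55. When FeD kidney 2 was left out, 7 of these genes rose and 0 fell (21.9% and 20.8% of all tested genes in that fit). Mlst8 went to -0.12 (edgeR adjusted P = 0.44), and the falls of Gsk3a and Akt2 no longer passed: Gsk3a went from -0.19 to -0.14 (edgeR adjusted P = 0.12), and Akt2 was at -0.21 in both fits (edgeR adjusted P = 0.069 without that library).

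Of the hypoxia genes commonly induced beside Ndrg1, 12 of 27 tested rose and 3 fell, beside 22.4% and 23.3% of all tested genes, and the median log2 fold change was 0.35. On the log2 scale, Ankrd37 rose by 2.42, Ddit4, an inhibitor of mTORC1, by 2.05, and Bnip3, a mitophagy receptor, by 1.55. Ndrg1, at 0.70, lay beside Bnip3l (0.75), Mxi1 (0.76) and Bhlhe40 (0.63) in size. The genes of the list that fell were Car9, a carbonic anhydrase, by 0.91, Fam162a by 0.36 and Gapdh by 0.28, and the glycolytic genes Pgk1 (-0.03), Tpi1 (-0.07) and Aldoa (0.17) did not pass the test. Eno1 had 1 to 3 raw counts in each kidney and did not enter the test. The annotation of the counting is not given. Whether these few counts reflect the expression of Eno1 or how reads were assigned to genes was not tested. In the fit without FeD kidney 2, 15 of these genes rose and 2 fell (21.9% and 20.8% of all tested genes in that fit), Gapdh no longer passed, at -0.25 (edgeR adjusted P = 0.079), and Ldha went from 0.28 (edgeR adjusted P = 0.076) to 0.41 (edgeR adjusted P = 0.0046).

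Of the cellular iron genes, 4 of 16 rose and 5 fell, beside 22.4% and 23.3% of all tested genes, and the median log2 fold change was 0.03. Ncoa4, the cargo receptor that delivers ferritin to lysosomes, rose by 1.33, and Lcn2, which binds iron-loaded siderophores, rose by 2.94. Aco1, the cytosolic aconitase that becomes an iron regulatory protein, fell by 0.71, and Tfrc, the transferrin receptor, fell by 0.47. In the fit without FeD kidney 2, 4 of these genes rose and 6 fell (21.9% and 20.8% of all tested genes in that fit).

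Of the genes of growth arrest and of growth signalling tied to NDRG1 and NDRG2, 9 of 18 rose and 1 fell, beside 22.4% and 23.3% of all tested genes, and the median log2 fold change was 0.31. Cdkn1a, a cyclin-dependent kinase inhibitor that NDRG1 raises in cultured cells, rose by 2.84, the growth factor receptor Erbb3 by 1.18 and Smad4 by 0.56, while Cd82, a metastasis suppressor, fell by 0.26. Cdh1 (0.01) and Ctnnb1 (-0.20), whose proteins NDRG1 keeps at the membrane of cancer cells, and Egfr (0.08) did not pass the test. In the fit without FeD kidney 2, 10 of these genes rose and 0 fell (21.9% and 20.8% of all tested genes in that fit), and Cd82 no longer passed, at -0.19 (edgeR adjusted P = 0.051).

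Of the lactate genes tied to NDRG3, 3 of 10 rose and 2 fell, beside 22.4% and 23.3% of all tested genes, and the median log2 fold change was -0.01. Slc16a3, the lactate exporter, rose by 1.28, from 4.58 to 4.89 CPM in control kidneys to 8.29 to 15.3 CPM in FeD kidneys, and the kinase gene Braf rose by 0.60. Ldhb, which favours the use of lactate, fell by 0.60 and the lactate importer Slc16a7 fell by 0.24. In the fit without FeD kidney 2, 4 of these genes rose and 1, Ldhb, fell (21.9% and 20.8% of all tested genes in that fit). There Slc16a7 no longer passed, at -0.16 (edgeR adjusted P = 0.093), and the median log2 fold change was 0.02.

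**Figure D5:**
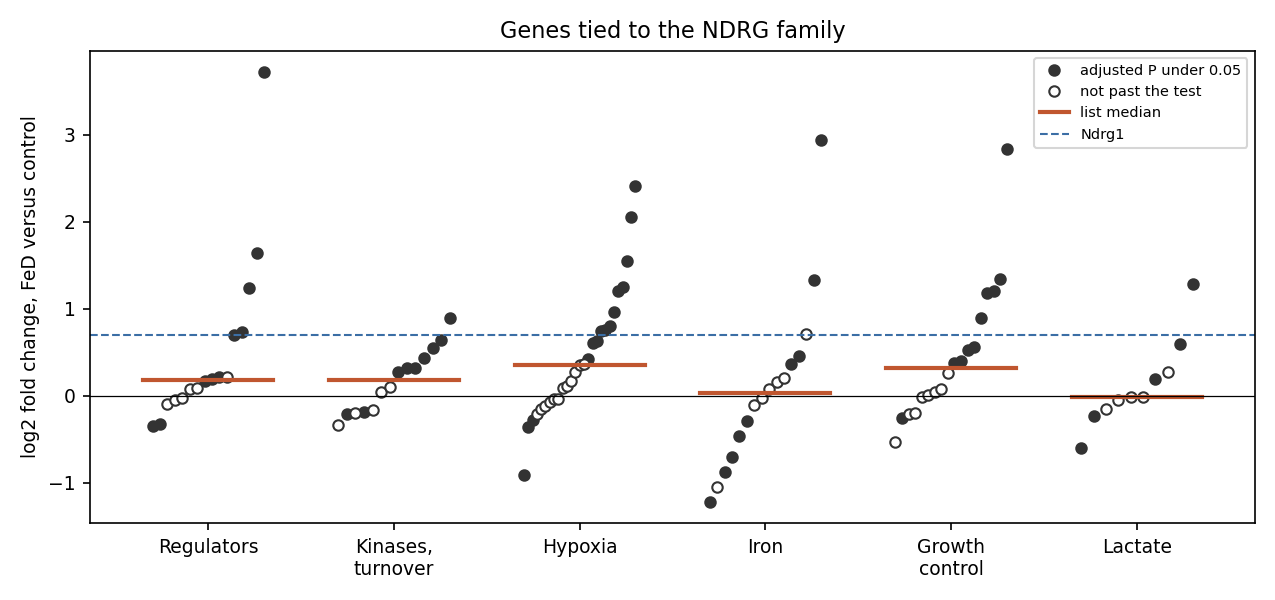
Log2 fold change, FeD versus control, of the tested genes of 6 lists tied to the NDRG family (filled: adjusted P under 0.05 in edgeR), with the median of each list in orange and Ndrg1 as a dashed line at 0.70. The list medians run from -0.01 to 0.35, and the highest point is Hif3a at 3.72.

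Markers of nephron segments were present in all 6 kidneys. The counts below stand beside 22.4% of all tested genes higher and 23.3% lower, several lie near these shares, and differences between the lists were not tested. In the proximal tubule list 11 of 14 genes fell and the others did not pass (median log2 fold change -0.72), in the distal convoluted tubule list 4 of 6 fell (median -0.69), in the thick ascending limb list 2 of 6 fell and 4 did not pass (median -0.34), and in the collecting duct principal cell list 4 of 7 rose and 2 fell (median 0.32). Of the intercalated cell list 2 of 6 rose and 2 fell, of the podocyte list 1 of 5 rose (Wt1) and 4 did not pass, of the endothelium list 4 of 5 fell, and of the smooth muscle list 1 of 5 rose and 3 fell. Of the Schwann cell and neuron list, which holds the cells best known for NDRG1, 1 of 6 tested genes rose, the myelin gene Mbp, from 29.0 to 32.9 CPM in control kidneys to 52.3 to 56.1 CPM in FeD kidneys. In the fit without FeD kidney 2, where 20.8% of all tested genes fell, the genes that fell were 5 in the distal convoluted tubule list, 1 in the thick ascending limb list (median -0.19), where Cldn10 went from -0.38 to -0.24 (edgeR adjusted P = 0.098), 1 in the principal cell list, where Hsd11b2 went from -0.30 to -0.28 (edgeR adjusted P = 0.056), and 2 in the endothelium list, where Cdh5 went from -0.42 to -0.39 (edgeR adjusted P = 0.058) and Tek from -0.49 to -0.44 (edgeR adjusted P = 0.052). Of the Schwann cell and neuron list, 1 of 7 tested genes then rose and 1 fell, and the other counts of this paragraph were the same. The part of these markers in the changes of Ndrg1, Ndrg3 and Ndrg4 was not tested.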

How the data were processed

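The authors sequenced RNA of whole kidneys and deposited raw counts per gene without normalization. The submitters' processing notes name CASAVA 1.8.2, Trimmomatic, TopHat2 2.0.11, HTSeq and the mm9 build; the annotation and strand setting of the counting are not given in the sources used here. Counts of 3 control and 3 FeD kidneys, grouped by the sample labels, were compared with edgeR 4.0.16 in R 4.3.3 (filterByExpr, TMM, glmQLFit and glmQLFTest), with Benjamini-Hochberg adjustment over the 15145 tested genes. Normalized values are CPM over TMM-scaled library sizes. The standard error is the size of the log2 fold change over the square root of F, and 95% intervals use the test's degrees of freedom. Ratios between members were tested by exact permutation (scipy 1.17.1). Levels per kilobase use union exon lengths of the NCBIM37 annotation, which 90.7% of tested genes matched. The symbol Ca9 was matched to Car9 through RefSeq synonyms, and Epb4.2 to Epb42. The procedure was tested on simulated counts.

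Genes are named by rule: the 4 members; for each, the 3 genes with at least 50 normalized counts on average that lie nearest in centred log2 CPM; and genes of lists of NDRG regulators, kinases, hypoxia, iron, growth control and lactate genes and of cell type markers. Members and lists were chosen with earlier results of these data known. Examples within lists were chosen after their values were seen. Some genes count in the totals and medians of their lists and are not reported here by name. Alternatives were other scalings, other filters (at least 1 count in all, or 10 counts in every kidney), DESeq2 1.42.0, a replicate block, globin and mitochondrial genes left out, the longest transcript as length, and each kidney left out in turn. Counts of the lists without FeD kidney 2 and the share over all pairs of genes were added after the data were seen.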

Additional observations from a re-analysis of the deposited data

How the results depend on the processing

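Ndrg1 and Ndrg3 kept their direction and passed the test under all 14 alternatives, Ndrg1 with log2 fold changes of 0.64 to 0.78 and Ndrg3 with -0.35 to -0.24. Leaving out each kidney in turn moved Ndrg2 between 0.093 and 0.18 (it passed without FeD kidney 3) and Ndrg4 between -1.09 and -0.38 (it passed without FeD kidney 2), so that 1 to 2 members were called higher and 1 to 2 lower. In these fits, from 2401 of 15394 (without control kidney 2) to 3937 of 15375 tested genes (without FeD kidney 3) were higher. From 2618 of 15394 to 3817 of 15375 were lower in the same 2 fits. With DESeq2's Wald test Ndrg4 passed at -0.64, and with the replicate block it passed at -0.74 (edgeR adjusted P = 0.049). So 2 members were called lower in each, where 3218 of 17245 genes with an adjusted P were in DESeq2 and 3344 of 15145 with the block. The cause of these passes was not tested. The block gave 3100 genes higher and 3344 lower, compared with 3397 and 3527 without it, and changed no other member's call. Same-numbered kidneys did not deviate together from their group means (correlations across genes of -0.16, 0.00 and -0.03), and no kidney correlated best with its own number. With the longest transcript as length, the shares of Ndrg1 were 81.4% in control and 87.9% in FeD kidneys, of Ndrg2 12.4% and 9.02%, and of Ndrg3 4.36% and 2.37%. The log2 differences of the ratios between members stayed above 0 when each kidney was left out, and that of Ndrg3 to Ndrg4, 0.45 with all kidneys, went to 0.85 without FeD kidney 2 and to 0.19 without FeD kidney 1. Globin rows held 0 counts and no mitochondrial rows were found, so leaving them out changed no value. With 3 kidneys a group, a log2 fold change of the size seen for Ndrg2 was not resolved from 0, and the lowest member, Ndrg4, rested on 253 to 729 counts per kidney.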

Other observations

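In the proliferation list, 7 of 8 genes fell in edgeR's test, where 23.3% of all tested genes fell and 22.4% rose, with a median log2 fold change of -1.35. Mki67, a marker of cycling cells, was at 52.7, 60.2 and 49.1 CPM in control kidneys and at 14.6, 10.8 and 9.43 CPM in FeD kidneys, without overlap. Pcna did not pass the test (-0.10; edgeR adjusted P = 0.31). In the leukocyte and mast cell list, 4 of 7 tested genes rose, among them Cd68, a macrophage marker, by 1.12, and 5 of 7 rose without FeD kidney 2, where 21.9% of all tested genes did. In the erythroid list, Alas2 and Epb42 did not pass the test (edgeR adjusted P = 0.081 and 0.20), and the 4 globin genes had 0 counts in all kidneys. In the heart and skeletal muscle list, 1 of 3 tested genes fell, Myh6, by 0.97 (without FeD kidney 2, 1 of 4 fell and 1, Myl7, rose), and Acta1 of skeletal muscle was at 6.27 CPM in FeD kidney 1 and at most 0.681 CPM elsewhere.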
